A study of Homo sapiens with 12 samples.

Results

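The RNA levels of 7 inhibitors of cyclin-dependent kinases (CDK) were followed in Granta-519 and JeKo-1, which are lines of mantle cell lymphoma, a cancer of B cells that usually overexpresses cyclin D1 (gene CCND1) through a translocation. The genes were chosen by family membership, with earlier results of these data known. CDKN1A, CDKN1B and CDKN1C form the CIP/KIP family, and CDKN2A, CDKN2B, CDKN2C and CDKN2D form the INK4 family. They are 7 of 23708 gene symbols in the tables, and each stands on 1 row in each table. The study silenced cyclin D1 by RNA interference and asked, per its design text, which transcripts depend on it.

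There were 4 groups of 3 libraries. Granta-519 cells, grown in RPMI medium, carried either a control shRNA (shCtrl), delivered by lentivirus, or one that targets cyclin D1 (shCycD1). JeKo-1 cells, grown in DMEM, carried the same pair of labels. Cells of all 4 groups were infected with lentivirus, selected with puromycin and kept in fetal bovine serum. The labels give 1 name for each shRNA, without its sequence or the time after infection, so an effect of the hairpin and an effect of the loss of cyclin D1 cannot be told apart. The design text calls the libraries biological replicates. Since the labels do not say whether they came from separate infections, p-values measure the spread between these samples, which may be technical.

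CIP/KIP proteins bind complexes of cyclins with CDKs and block CDK2 above all, while they can also help cyclin D to assemble with CDK4 and CDK6. INK4 proteins bind CDK4 and CDK6 alone and keep D-type cyclins off them. Cyclin D1 complexes are known to hold p27, the product of CDKN1B, away from CDK2, and loss of CDKN2A is a recurrent lesion of mantle cell lymphoma.

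The promoters of the 4 members whose RNA moved in these lines and whose windows carry GC boxes are shown, because the GC box GGGCGG binds SP-family factors, which are known to act on inhibitor genes. Each is the 250 bases before a RefSeq start on build GRCh38.p14, 5′ to 3′ on the gene's strand, with GC boxes on either strand in capitals. The windows are CDKN1A at chr6:36678464-36678713 on the plus strand, CDKN1B at chr12:12717118-12717367 on the plus strand, CDKN2C at chr1:50968456-50968705 on the plus strand (the start with most GC boxes of its 3), and CDKN2D at chr19:10568980-10569229 on the minus strand.
CDKN1A: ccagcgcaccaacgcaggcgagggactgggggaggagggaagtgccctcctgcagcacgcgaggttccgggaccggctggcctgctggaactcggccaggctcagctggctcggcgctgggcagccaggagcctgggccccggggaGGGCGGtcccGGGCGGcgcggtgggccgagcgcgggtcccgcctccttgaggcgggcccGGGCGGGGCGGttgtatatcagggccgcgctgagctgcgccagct
CDKN1B: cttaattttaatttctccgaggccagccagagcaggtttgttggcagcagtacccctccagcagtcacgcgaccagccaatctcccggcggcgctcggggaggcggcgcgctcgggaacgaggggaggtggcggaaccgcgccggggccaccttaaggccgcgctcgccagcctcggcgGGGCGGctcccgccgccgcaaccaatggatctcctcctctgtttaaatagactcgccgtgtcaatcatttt
CDKN2C: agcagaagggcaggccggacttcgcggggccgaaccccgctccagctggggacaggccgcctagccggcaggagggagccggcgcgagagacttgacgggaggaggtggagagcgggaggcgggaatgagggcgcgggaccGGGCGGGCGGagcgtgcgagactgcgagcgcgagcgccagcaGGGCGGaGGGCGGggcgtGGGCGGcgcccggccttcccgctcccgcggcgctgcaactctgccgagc
CDKN2D: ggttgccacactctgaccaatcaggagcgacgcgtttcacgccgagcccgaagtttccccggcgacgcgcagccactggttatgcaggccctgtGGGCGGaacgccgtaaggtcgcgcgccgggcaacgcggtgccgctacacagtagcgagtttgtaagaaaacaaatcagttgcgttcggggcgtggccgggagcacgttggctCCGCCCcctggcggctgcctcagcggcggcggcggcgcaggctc
The CDKN1A window held 4 GC boxes, the first 104 bases before the start, and its last pair shared a base. CDKN1B held 1 GC box, 71 bases before the start. CDKN2C had 5, and its first pair overlapped. CDKN2D had 2, 1 of them on the other strand. Of 35116 RefSeq windows of this length, 42.6% held a GC box, so its presence is common. RefSeq starts were matched for 6 of the 7 members, 9 starts in all. No start was matched for CDKN1C, so its promoter was not examined. None of the 9 windows held any of the E2F-type sites searched (TTTCCCGC, TTTCGCGC, TTTGCCGC or TTTGGCGC, both strands, found in 2.79% of all windows). None held a cell cycle homology region (TTTGAA or TTCGAA, both strands, 14.3%). Shorter or looser forms of the E2F-type site were not searched. The CDKN2C window shown holds TTCCCGC, the first of the sites searched without its leading T. These are matches of letters and were not measured as binding.

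Levels are given in RPKM, reads per kilobase and 1000000 reads, as deposited on a log scale and taken out of it. In Granta-519 the kilobases appear to be those of the whole gene, introns included, and in JeKo-1 they appear not to be. Levels were therefore not tested between the lines, and those printed side by side below are not on a shared scale. The order of genes within Granta-519 is per genomic span. Each change was taken within a line, though dividing by the longer span lowers the values of long genes and so affects which of them were tested and how far the added 0.5 shrinks their changes. Within a group, Pearson's r between libraries across genes was 0.981 to 0.988 for Granta-519 and 0.968 to 0.974 for JeKo-1, above the 0.954 to 0.962 and 0.881 to 0.898 between groups. All 6 B-cell markers passed the minimum for testing in both lines, and their summed RPKM went from a range of 2289 to 2383 in shCtrl to 2092 to 2194 in shCycD1 in Granta-519 and from 907 to 1045 to 1279 to 1451 in JeKo-1. Of 7 T and NK cell markers, 0 passed in Granta-519 and 1 in JeKo-1. In Granta-519, 5 of the 7 were under 0.1 RPKM in all libraries and the list summed to 0.383 to 0.594 in shCtrl and 0.546 to 0.651 in shCycD1. In JeKo-1 CD2 alone was that low, the list summed to 3.32 to 3.68 and 3.14 to 3.49, and CD3G went from 1.37 to 1.78 RPKM (called higher, adjusted p = 0.046). Of 6 myeloid markers, 3 and 2 passed, with summed RPKM of 58.8 to 65.6 and 55.2 to 60.3 in the groups of Granta-519 and 3.52 to 4.60 and 3.62 to 4.25 in those of JeKo-1. Spike-in RNAs, made in vitro and mixed into each sample, took 8.05, 11.9 and 8.71% of the summed RPKM in Granta-519 controls and 5.42, 6.504 and 5.68% in its silenced libraries. In JeKo-1 their share was 4.68 to 6.83% and 4.54 to 7.42%, with overlap. Of 7 other markers, mainly of epithelium and fibroblasts (EPCAM, KRT8, KRT18, COL1A1, COL1A2, VIM and PECAM1), 4 passed in Granta-519 and 3 in JeKo-1. VIM, which lymphoid cells also express, made up most of their sum. PECAM1 was called higher in both lines (0.64 and 1.37) and COL1A1 in Granta-519 (0.48). The part of these shifts in the changes below was not tested. CCND1, the silenced gene, stood at 924, 1043 and 874 RPKM in the shCtrl libraries of Granta-519 and at 213, 298 and 292 with shCycD1. The JeKo-1 controls had 395, 330 and 315 RPKM against 65.4, 64.8 and 67.4. It was lower in all 6 silenced libraries than in any control of its line. A fall in a bulk library can mean fewer cells with a transcript or less of it per cell, which cannot be told apart.

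Changes below are log2 differences of shCycD1 less shCtrl on the scale log2(RPKM + 0.5) with their standard errors (SE), tested with limma across all genes and called at a Benjamini-Hochberg adjusted p under 0.05. In Granta-519, 5 of the 7 inhibitor genes passed the minimum, and of these 1 was called higher (CDKN1C) and 3 lower (CDKN1A, CDKN2C and CDKN2D). The background was high: 22.4% of 12668 genes were called higher and 18.2% lower, 40.6% in all. In JeKo-1, 6 of 7 passed, 2 were called higher (CDKN1B and CDKN1C) and 3 lower (CDKN1A, CDKN2C and CDKN2D), where 36.7% of 11866 genes were called higher and 27.8% lower, 64.6% in all. The groups did not overlap for 4 of the 5 members in Granta-519 (54.0% of all genes) and for all 6 in JeKo-1 (69.6%). The median change of the members tested was -0.52 in Granta-519, where all genes had a median of 0.03, and 0.06 in JeKo-1, where it was 0.09. Called the same way in both lines were 1 member upward (14.8% of the 10653 genes tested in both) and 3 downward (13.1%).

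**Figure D1:**
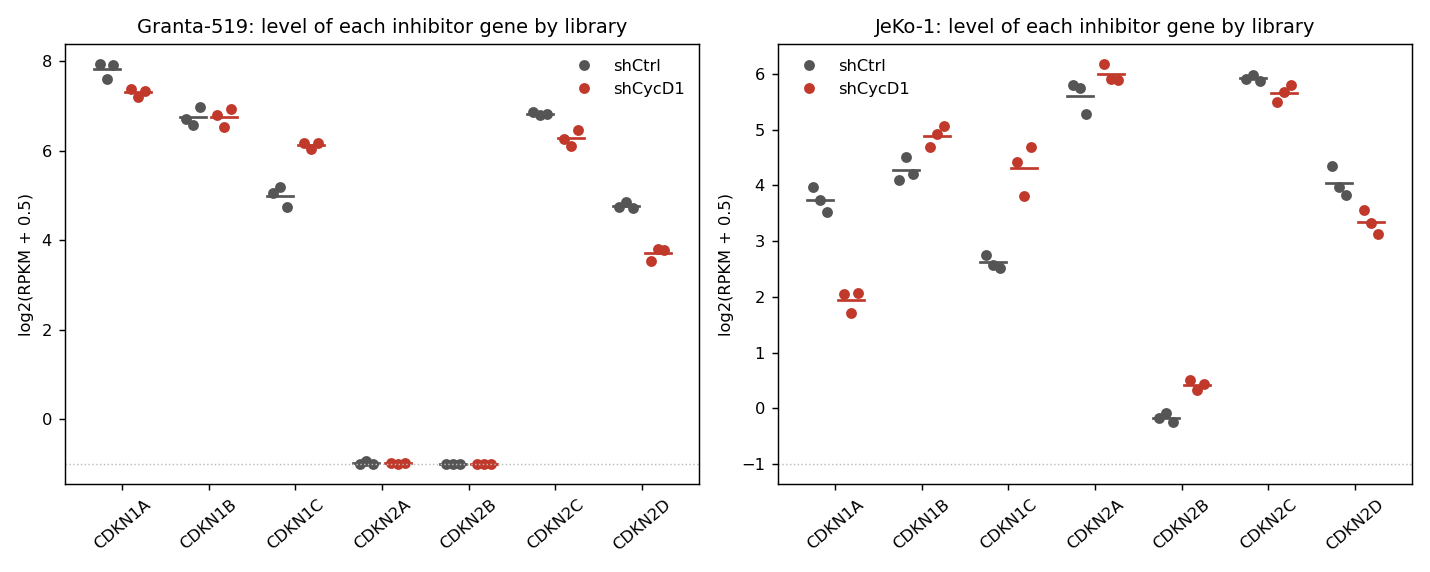
Levels of the 7 inhibitor genes as log2(RPKM + 0.5), with the 3 shCtrl and 3 shCycD1 libraries of each line as points, short lines for group means and a dotted line at an RPKM of 0. CDKN1C stood higher in all silenced libraries of both lines, and CDKN1A and CDKN2D lower. Heights are not comparable between the lines.

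CDKN1A encodes p21, the CIP/KIP inhibitor known as a target of p53. In Granta-519 it stood at 246, 196 and 241 RPKM in shCtrl and at 168, 147 and 161 in shCycD1. All silenced libraries were below all controls. Means went from 228 ± 27.6 (SD, n = 3) to 158 ± 10.6 RPKM, and CDKN1A fell by 0.52 ± 0.11 on the log2 scale (limma, adjusted p = 0.00894). With libraries scaled to the spike-in RNAs, which moved the median of all genes in this line from 0.03 to 0.72, its value was 0.23 and not called (adjusted p = 0.482). In JeKo-1 the libraries stood at 15.1, 12.8 and 10.9 RPKM against 3.67, 2.79 and 3.70. No shCycD1 library came near a control. The mean went from 13.0 ± 2.09 to 3.38 ± 0.52 RPKM, and CDKN1A fell by 1.79 ± 0.15 (adjusted p = 6.07e-05), 3.46-fold lower. This call held under all 15 alternatives tried in that line.

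CDKN1B encodes p27, the inhibitor of cyclin E and cyclin A complexes with CDK2. In Granta-519 it stood at 105, 95.03 and 127 RPKM in shCtrl and at 111, 92.7 and 123 in shCycD1. Replicates of each group spanned the same range. The change was -0.0011 ± 0.14 (adjusted p = 0.996), with a 95% interval of -0.33 to 0.33, so a change within that range was not detectable. Scaled to the spike-in RNAs it was 0.74 (adjusted p = 0.0329), beside the all-gene median of 0.72. In JeKo-1 the controls stood at 16.7, 22.4 and 18.0 RPKM and the silenced libraries at 25.3, 29.7 and 32.9. The groups did not overlap. CDKN1B rose by 0.61 ± 0.14 (adjusted p = 0.0063), from 19.0 ± 3.02 to 29.3 ± 3.82 RPKM. With spike-in scaling it was 0.53 and not called (adjusted p = 0.176).

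CDKN1C encodes p57, the CIP/KIP inhibitor known best from embryonic growth and imprinting. In Granta-519 its controls stood at 33.0, 36.3 and 26.2 RPKM and its silenced libraries at 72.2, 65.3 and 71.7. Every silenced library was well above every control. CDKN1C rose from 31.8 ± 5.12 to 69.8 ± 3.84 RPKM, by 1.13 ± 0.12 (adjusted p = 0.000756), 2.19-fold. The JeKo-1 libraries had 6.27, 5.48 and 5.26 RPKM against 20.95, 13.5 and 25.3. The silenced libraries spread widely but did not overlap with the controls. CDKN1C rose from 5.67 ± 0.527 to 19.9 ± 5.94 RPKM, by 1.68 ± 0.21 (adjusted p = 0.000389), 3.22-fold. It was the member called higher under all 14 alternatives in Granta-519 and all 15 in JeKo-1, with 1.87 under spike-in scaling in Granta-519 and 1.12 under a correction for GC content in JeKo-1. That correction bears on JeKo-1 because its changes moved with the GC content of the transcript, from a median of -0.25 in the lowest of 4 equal bins of genes to 0.47 in the highest, against 0.01 and 0.03 in Granta-519. The CDKN1C transcript is 63.8% GC.

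**Figure D2:**
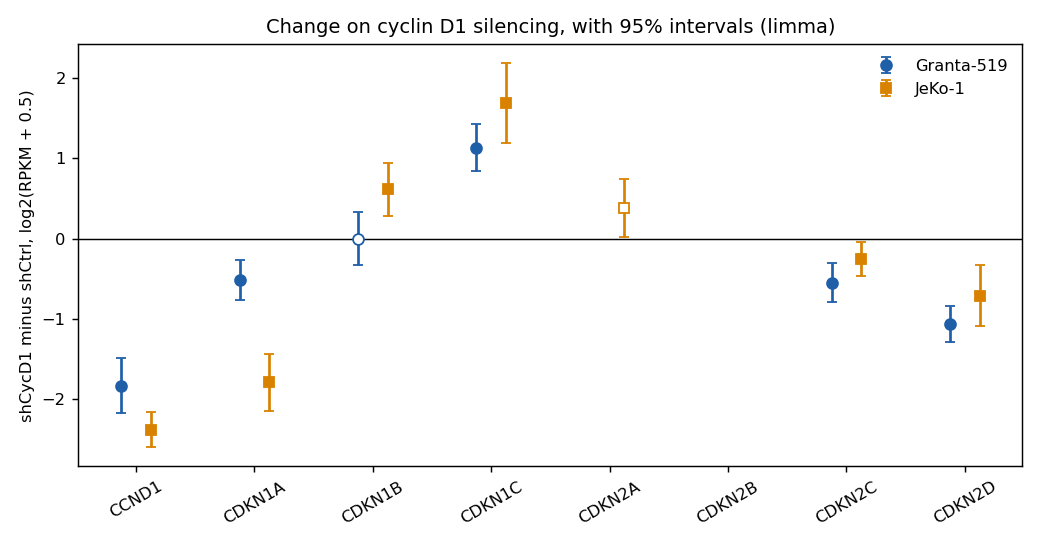
Log2 change, shCycD1 less shCtrl, with 95% intervals for CCND1 and the inhibitor genes tested in each line, where hollow points were not called and untested genes have no point. CDKN1A was at -0.52 (Granta-519) and -1.79 (JeKo-1). CDKN1C was at 1.13 and 1.68.

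CDKN2C encodes p18, the INK4 inhibitor known in B cells for its part in the step to plasma cells. In Granta-519 the controls stood at 117, 111 and 113 RPKM and the silenced libraries at 76.9, 68.4 and 88.7. The groups did not overlap. CDKN2C fell from 114 ± 2.99 to 78.0 ± 10.2 RPKM, by 0.55 ± 0.10 (adjusted p = 0.00563), and stood at 0.20 with spike-in scaling (adjusted p = 0.570). The JeKo-1 values were 59.4, 62.4 and 58.5 RPKM against 44.9, 51.0 and 55.2. All silenced libraries were below the controls, by little in the last. CDKN2C fell by 0.26 ± 0.09 (adjusted p = 0.0368), from 60.1 ± 2.01 to 50.3 ± 5.17 RPKM. That call was lost without any of the 3 shCtrl libraries or without shCycD1 1 or 2 (values of -0.28 to -0.18), with quantile normalization (-0.19, adjusted p = 0.0935) and with spike-in scaling (-0.35, adjusted p = 0.426). With the GC correction the fall was 0.64 (adjusted p = 0.00134). The CDKN2C transcript is 58.1% GC.

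CDKN2D encodes p19, another INK4 inhibitor of CDK4 and CDK6. Granta-519 controls stood at 26.2, 28.5 and 25.8 RPKM and silenced libraries at 11.2, 13.4 and 13.2. Every silenced library was far below the controls. CDKN2D fell from 26.8 ± 1.48 to 12.6 ± 1.24 RPKM, by 1.06 ± 0.09 (adjusted p = 0.000372), 2.09-fold lower. With spike-in scaling it was -0.34 and not called (adjusted p = 0.368). For JeKo-1 they were 19.8, 15.2 and 13.8 RPKM against 11.3, 9.59 and 8.20. The groups again did not overlap. It fell by 0.71 ± 0.16 (adjusted p = 0.00636), from 16.3 ± 3.12 to 9.69 ± 1.54 RPKM, and by 1.18 with the GC correction (adjusted p = 0.000142).

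**Figure D3:**
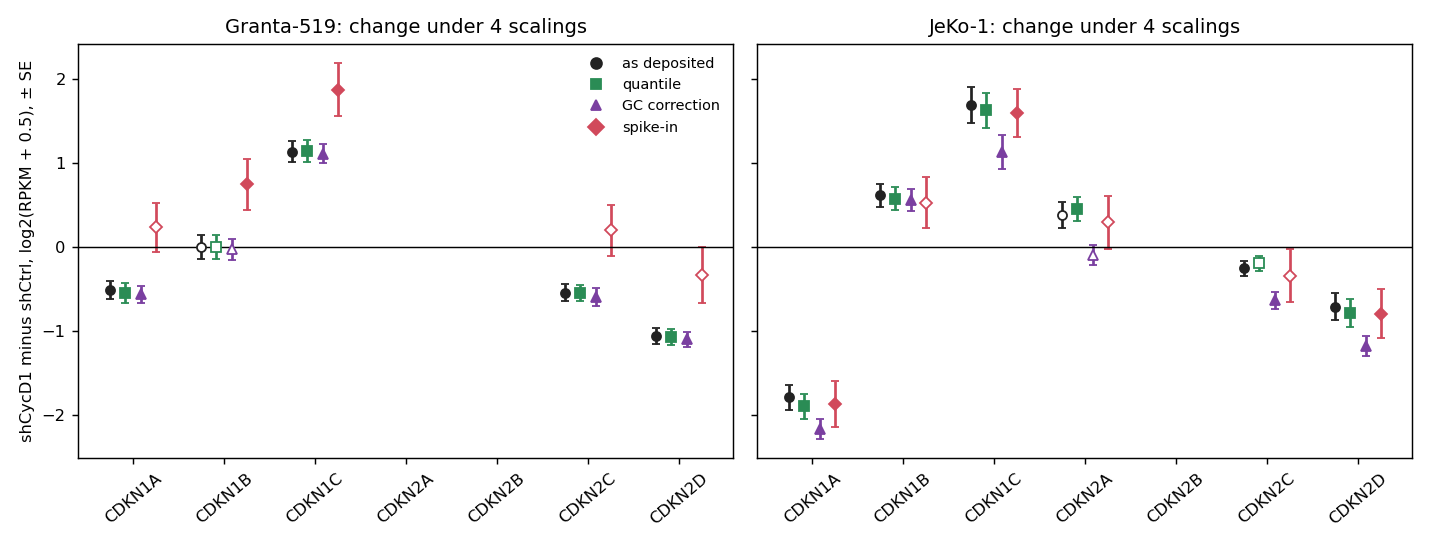
Log2 change ± SE of each tested inhibitor gene (hollow points were not called) under the deposited scale, quantile normalization, spike-in scaling and GC correction. CDKN1C stayed above 1 in both lines under each, and CDKN1A and CDKN2C in Granta-519 moved above 0 with spike-in scaling, to 0.23 and 0.20.

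CDKN2A encodes both p16, an INK4 inhibitor, and ARF, a regulator of p53, from separate starts. The tables give a single row for it, so these products cannot be told apart. In JeKo-1 CDKN2A stood at 55.6, 53.4 and 38.4 RPKM in shCtrl and 72.0, 59.6 and 58.8 in shCycD1. The groups did not overlap, though the lowest control stood apart from the other two. The change from 49.1 ± 9.33 to 63.5 ± 7.42 RPKM was 0.38 ± 0.15 and missed the threshold (adjusted p = 0.0635, 95% interval 0.02 to 0.74). It was called without shCtrl 1 (0.48, adjusted p = 0.0378) and with quantile normalization (0.45, adjusted p = 0.0297), and turned to -0.10 with the GC correction (adjusted p = 0.492). In Granta-519 CDKN2A was at or near 0, with 0, 0.0256 and 0 RPKM in shCtrl and 0.00849, 0 and 0.00910 in shCycD1. It was too low there for a test.

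CDKN2B encodes p15, the INK4 inhibitor known to respond to TGF-beta. It was listed at 0 in all 6 Granta-519 libraries. Its JeKo-1 values were 0.385, 0.444 and 0.341 RPKM against 0.924, 0.750 and 0.849, higher in all silenced libraries but under the minimum of 1 RPKM. Without that minimum its change was 0.59 ± 0.08 (adjusted p = 0.0019). The antisense gene CDKN2B-AS1 overlaps CDKN2B, and since the strand setting of the counting is not given, reads of the pair may be split uncertainly.

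Genes of the chromosome arm 9p, on which CDKN2A and CDKN2B lie at 9p21, were read beside them. Granta-519 values are per genomic span, so levels of the lines are not on a shared scale. HAUS6, PLIN2, RPS6 and DENND4C lie further along the arm, outside 9p21. MTAP, a near neighbour whose enzyme salvages methionine, stood at means of 0.0101 and 0.00854 RPKM in Granta-519 and at 10.2 and 9.82 in JeKo-1 (shCtrl, then shCycD1). KLHL9 was at 0.115 and 0.0966 in Granta-519 and at 5.94 and 7.41 in JeKo-1. DMRTA1 was listed at 0 in Granta-519 and was also near 0 in JeKo-1, at 0.0074 and 0.0037. CDKN2B-AS1 was at 0.249 and 0.296 in Granta-519, and in JeKo-1 it fell by 0.39 (adjusted p = 0.0318), from 2.91 to 2.09 RPKM. It was uncalled with no minimum, under spike-in scaling (-0.46) or GC correction (-0.25), and without shCtrl 2 or 3 or any of the shCycD1 libraries (-0.41 to -0.32). Other genes of the arm varied in Granta-519: MLLT3 stood at 0.339 and 0.570 RPKM and ELAVL2 at 0.0243 and 0.0609, both untested, while HAUS6 stood at 11.04 and 8.502 RPKM, PLIN2 at 46.0 and 47.7 and RPS6, a ribosomal protein gene, at 3244 and 3537. Of 15 list genes, 5 were tested in Granta-519, with 0 called higher and 1 lower (HAUS6, -0.36, adjusted p = 0.0359, which was 0.35 and not called with spike-in scaling). The HAUS6 call was also lost without shCtrl 1 or 3 or shCycD1 1 or 2, at -0.34 to -0.29. In JeKo-1, 9 were tested, with 1 higher and 4 lower, where 36.7% and 27.8% of all genes were called (22.4% and 18.2% in Granta-519). DNA copies were not measured.

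**Figure D4:**
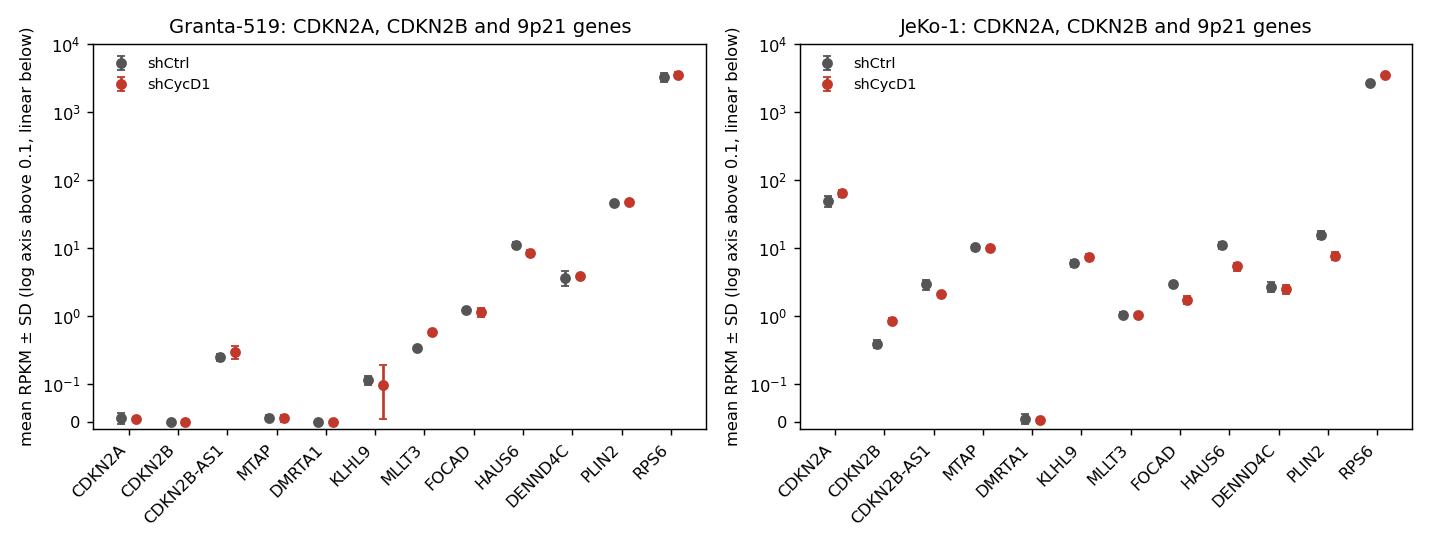
Mean RPKM with SD (n = 3) of CDKN2A, CDKN2B and other genes of the arm 9p in each line, on an axis that is logarithmic above 0.1 and linear below. PLIN2, RPS6, HAUS6 and DENND4C lie outside 9p21. In Granta-519 CDKN2A, CDKN2B, MTAP and DMRTA1 lay at or near 0 in both groups while PLIN2 and RPS6 did not, and in JeKo-1 DMRTA1 was near 0 too. Heights are not comparable between the lines.

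Within JeKo-1, the order of levels was read as RPKM across genes, though the gene length used there was not established. In shCtrl it ran from CDKN2C at 60.1 RPKM through CDKN2A at 49.1, CDKN1B at 19.0, CDKN2D at 16.3, CDKN1A at 13.0 and CDKN1C at 5.67 to CDKN2B at 0.390. The ranges of CDKN1B and CDKN2D overlapped, as did those of CDKN2D and CDKN1A. With shCycD1 it ran from CDKN2A at 63.5 and CDKN2C at 50.3 through CDKN1B at 29.3, CDKN1C at 19.9, CDKN2D at 9.69 and CDKN1A at 3.38 to CDKN2B at 0.841. Here CDKN1C stood above CDKN2D and CDKN1A in every library, and only CDKN1B and CDKN1C came together, at 25.3 RPKM. In Granta-519, per genomic span, CDKN1A had the highest value in both groups, at 228 and 158 RPKM.

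The changes of the lines were compared directly in a fit of all 12 libraries. Of 5 members tested, 2 differed, where 41.9% of 10653 genes did. CDKN1A fell less in Granta-519, with a difference of 1.27 ± 0.19 between the changes (adjusted p = 0.00033), and all 21 alternatives kept this call with values of 0.80 to 2.101. CCND1 itself also fell less in Granta-519, by 0.55 ± 0.18 (adjusted p = 0.0306). That CCND1 call was lost in 7 of the 12 fits that left out a library. The lines also differed in medium, and the part of either in the CDKN1A difference was not tested. CDKN1B differed by -0.61 ± 0.21 (adjusted p = 0.0345). Its call was lost without Granta-519 shCtrl 1 or 3 or shCycD1 1 or 2, and without JeKo-1 shCtrl 1 or 3 or shCycD1 2 or 3, where values were -0.63 to -0.50, and the value was 0.22 with spike-in scaling (adjusted p = 0.690). No difference was called for CDKN1C (-0.55, 95% interval -1.13 to 0.03), CDKN2C (-0.29, interval -0.59 to 0.01) or CDKN2D (-0.35, interval -0.78 to 0.08). Each interval allows a sizeable difference. CDKN1C was called without JeKo-1 shCycD1 2 (-0.80), CDKN2C without Granta-519 shCycD1 3 (-0.39) and CDKN2D without JeKo-1 shCtrl 1 (-0.49).

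Ratios within a library do not depend on its scaling, so inhibitors were set against their targets. Exact two-sided permutation tests of 3 against 3 libraries cannot go below p = 0.1. Of 16 ratios, 12 did not overlap between groups, each with exact p = 0.1 and an adjusted p of 0.133. Of these 12, 4 have CCND1, the silenced gene, below the line. Their rise follows in part from the silencing itself and is given as a description. Single genes were often without overlap too, at 54.0% (Granta-519) and 69.6% (JeKo-1) of those tested. The ratios reuse a few genes, and no such share was taken for ratios of other genes. The count of 12 is therefore not set apart from the background. CDKN1B over CCND1 was 0.0422, 0.0680 and 0.0571 in the JeKo-1 controls and 0.387, 0.459 and 0.488 in the silenced libraries. That is a log2 difference of 3.02, against 1.83 in Granta-519, where CDKN1B itself was at -0.0011. CDKN1B over CDK2, its kinase target, differed by 2.58 in JeKo-1, from 0.341 to 2.04 as geometric means, and by 1.36 in Granta-519. CDK2 itself changed by -1.35 in Granta-519 (adjusted p = 0.000283), where spike-in scaling left -0.61 uncalled, and by -1.91 in JeKo-1 (adjusted p = 2.49e-06).

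CDKN1A was set against the same kinase. CDKN1A over CDK2 differed by 0.84 between the groups of Granta-519 and by 0.02 between those of JeKo-1, where the groups overlapped (exact p = 1.0). CDKN1B over CDKN1A was 1.10, 1.75 and 1.65 in JeKo-1 controls and 6.91, 10.7 and 8.90 with shCycD1, a log2 difference of 2.56, and differed by 0.52 in Granta-519. For the INK4 genes against CDK4, CDKN2D over CDK4 differed by -0.69 between the groups of Granta-519 and by -0.31 between those of JeKo-1, the latter with overlapping groups (exact p = 0.3). CDKN2C over CDK4 differed by -0.15 in Granta-519 with overlap (exact p = 0.2) and by 0.17 in JeKo-1 without. CDKN1A over CCND1 differed by 1.32 and by 0.45 (Granta-519, then JeKo-1), without overlap in either line. CDKN2D over CDKN2C differed by -0.54 without overlap in Granta-519 and by -0.48 with overlap in JeKo-1 (exact p = 0.3). A ratio to CDK6 was not taken in either line, as CDK6 was under 1 RPKM in JeKo-1 and in at least 1 library of Granta-519 (shCycD1 mean 1.22 ± 0.26).

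**Figure D5:**
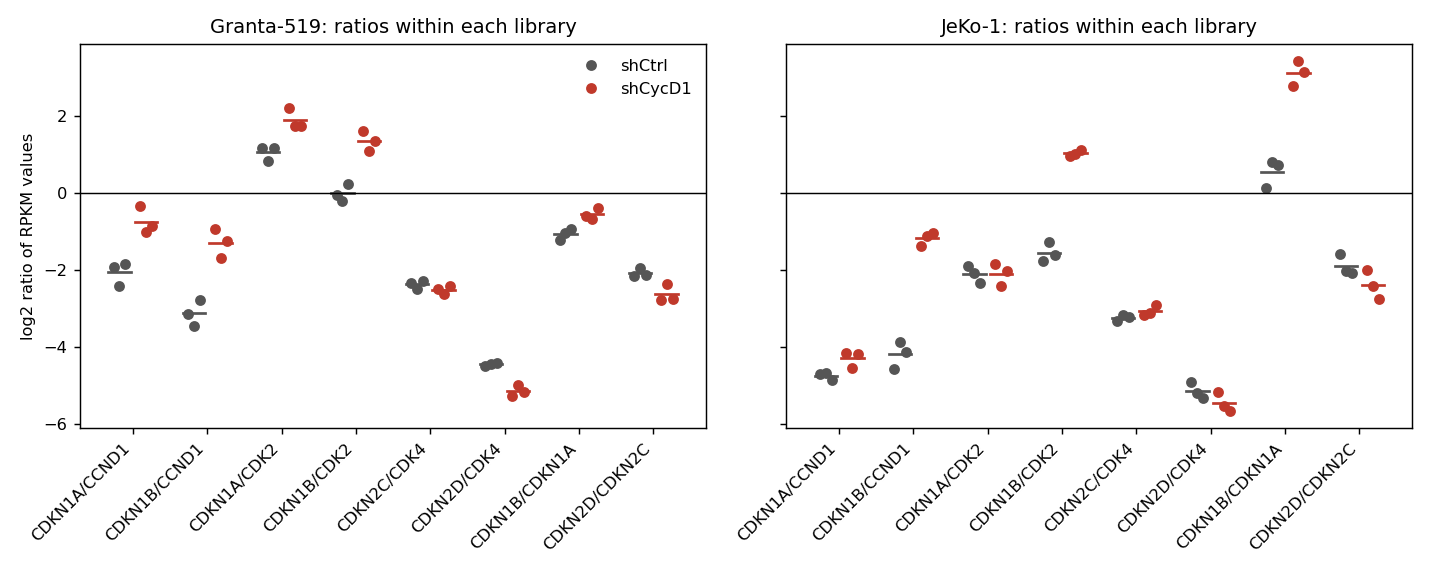
Log2 ratios of inhibitor to target RNA in each library of each line, with shCtrl and shCycD1 libraries as points and short lines for group means. CDKN1B over CCND1 was higher in all silenced libraries of both lines, and CDKN1A over CDK2 overlapped between groups in JeKo-1.

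The cyclins and CDKs these proteins inhibit were mostly lower. This list and those that follow were chosen with earlier results of these data known. Of 13 in Granta-519, 1 was called higher and 10 lower, with a median of -0.89, and of 10 tested in JeKo-1, 1 was higher and 9 lower, with a median of -2.20. These counts and medians include CCND1, the silenced gene. Its changes of -1.83 in Granta-519 and -2.38 in JeKo-1 are those of the silencing itself and are given as a description. Of all genes, 22.4% were called higher and 18.2% lower in Granta-519, and 36.7% and 27.8% in JeKo-1. With spike-in scaling the Granta-519 calls in this list became 1 higher (CCND2) and 2 lower (CCND1 and CCNA2). Among all 12668 genes that scaling gave 6373 higher and 113 lower. CCNA2, cyclin A2, fell by 1.46 in Granta-519 and fell by 3.69 in the other line, and CDK1, the mitotic kinase, fell by 1.38 and fell by 3.94. CCND2 rose by 1.64 in Granta-519 and was too low to test in JeKo-1. For CCND3 the fall in Granta-519 was called at -0.27 (limma, adjusted p = 0.0431), a call lost without any 1 of the 6 libraries (-0.31 to -0.23) and standing at 0.36 with spike-in scaling. It rose in JeKo-1, by 0.53 (adjusted p = 0.00449), and was uncalled under spike-in scaling or GC correction.

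Binding partners and turnover factors of the inhibitors were read next. Among 13 pocket proteins and other partners, 1 was higher and 6 lower in Granta-519 (median -0.22) and 1 higher and 9 lower in JeKo-1 (median -0.67). PCNA, the replication clamp that p21 binds, fell by 1.20 and fell by 3.08 in the same order of lines. Of 13 genes for the turnover of p21, p27 and p57, 1 was higher and 7 lower in Granta-519 (median -0.37) and 2 were higher and 7 lower in JeKo-1 (median -0.54). The shares of all genes were 22.4% higher and 18.2% lower in Granta-519, and 36.7% and 27.8% in JeKo-1. CKS1B, a cofactor of p27 breakdown, fell by 1.18 in Granta-519. SKP2, the ubiquitin ligase subunit that marks p27 for breakdown, chosen here after its values were seen, changed by -0.82 (adjusted p = 0.00724) in Granta-519 and by -0.66 (adjusted p = 0.00162) in JeKo-1. Under spike-in scaling the Granta-519 counts became 3 higher and 0 lower for partners and 5 higher and 1 lower for turnover, with PCNA at -0.45, CKS1B at -0.44 and SKP2 at -0.13, all uncalled. Among all 12668 genes that scaling gave 6373 higher and 113 lower.

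Regulators of the inhibitor genes were called in both directions, in JeKo-1 at shares near those of all genes (36.7% higher and 27.8% lower). For Granta-519 the shares of all genes were 22.4% higher and 18.2% lower. Of the p53 pathway, 29 genes were tested in Granta-519, with 3 higher and 9 lower (median -0.09), and 25 in JeKo-1, with 8 higher and 8 lower (median -0.03). BTG2, an antiproliferative p53 target, rose by 0.66 in the first line and by 2.002 in the second. The largest called falls of this list in JeKo-1 were those of DDB2 (-1.80) and CCNG1 (-1.07). Both were also called lower in Granta-519 (-0.55 and -0.61). Of 26 transcriptional regulators tested in each line, 3 were higher and 8 lower in Granta-519 (median -0.13), and 8 were higher and 9 lower in JeKo-1 (median -0.17). EZH2, the methyltransferase known to silence the CDKN2A locus, changed by -1.10 in Granta-519 and -2.02 in JeKo-1. E2F1, a driver of the G1 to S step, changed by -1.42 and -1.95, and both genes were called in each line. FOXO4, of the FOXO family that activates CDKN1B, rose by 0.77 in Granta-519 and 0.88 in JeKo-1. The other family members listed did not all follow. FOXO1 was not called in either line (0.22 in Granta-519 and 0.02 in JeKo-1). FOXO3 was too low to test in Granta-519 and rose by 0.54 in JeKo-1. MYC, a known repressor of inhibitor genes, rose by 1.27 in JeKo-1, while its Granta-519 value of 0.10 was not called (adjusted p = 0.603). With spike-in scaling, Granta-519 had 10 higher and 0 lower in the p53 list and 9 higher and 0 lower among regulators, with E2F1 at -0.68 and EZH2 at -0.43, both uncalled. Under that scaling 6373 of all 12668 genes were called higher and 113 lower, so most calls of any list pointed up.

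Across the 12 libraries, each less the mean of its line, the genes most like each member were named by Pearson correlation among 10652 genes. These points share the group contrast and the library, so the values describe likeness only. Closest to CDKN1A were YKT6 (r = 0.985), HSPA14 (0.985) and WBP11 (0.984). For CDKN1B they were FXR2 (0.935), SOCS6 (0.931) and DEDD2 (0.930), and for CDKN1C they were ATF5 (0.985), GSTA4 (0.984) and LOC100128822 (0.983). CDKN2C came closest to ING1 (0.948), MSANTD3 (0.930) and ACAT1 (0.926), and CDKN2D to BCL2L12 (0.986), TST (0.981) and WDR34 (0.981).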

How the data were processed

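RNA of 12 libraries (3 for each of 4 groups, by sample title) was made with a stranded mRNA kit, per the labels' protocols. Tools named in the submitters' processing notes were FastQC, TopHat2 2.1.1 and limma 3.9, with builds GRCh37 and hg19. Counter, annotation and strand setting: not given in the sources used here. The authors deposited 1 table for each line, titled RPKM, whose values were taken as RPKM + 1 on a natural log scale. In JeKo-1, 100.0% of 68866 mid-range values taken out of a natural log had 6 significant digits (10.2% with base 2). In Granta-519 that digit check stood at chance (10%) for both bases, at 9.9% and 10.0%. There, low values times genomic span were whole multiples of a step in 76.6 to 82.7% of cases (tolerance 0.1). With base 2 it was 53.0 to 58.3%, and with the longest transcript as length 24.5 to 25.8%. In JeKo-1, out of a natural log, the shares were 34.2 to 37.6% with the longest transcript and 27.6 to 32.1% with genomic span. The length used for JeKo-1 was thus not established. The step was the best of many tried, so chance lies above the 20% of a fixed step. Depth is unknown.

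For each symbol, the row with the highest mean was used. Each line was fitted with limma 3.58.1 (R 4.3.3, trend) on log2(RPKM + 0.5), a scale that understates changes of low genes, for genes at 1 RPKM or more in at least 3 of 6 libraries. The difference used a joint fit. Fits were tested on simulated data. Genes named are the members, CCND1, ratio partners, the 2 largest called changes each way in each list, all listed cyclin, CDK and 9p genes, and the 3 most correlated genes, of which a selection is printed. Members and lists were chosen with earlier results of these data known. Alternatives were pseudocounts of 0.1 and 1, no filter, quantile, spike-in and GC scaling, library weights, a replicate block, JeKo-1 read as log2, and leaving out each library.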

Additional observations from a re-analysis of the deposited data

Results flagged for a closer look

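The fall of CDKN1A differed between the lines in a test of the difference itself, by 1.27 ± 0.19 on the log2 scale (Granta-519 less JeKo-1, limma, adjusted p = 0.00033). It was lower in 3 of 3 silenced libraries of each line than in any control. CCND1 also fell less in Granta-519, by 0.55 ± 0.18 (adjusted p = 0.0306), and the part of this in the CDKN1A difference was not tested.

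CDKN1B differed by -0.61 ± 0.21 (adjusted p = 0.0345). It was higher in 3 of 3 silenced libraries of JeKo-1 than in any control, and its groups overlapped in Granta-519. The call was lost in 8 of the 12 fits that left out a library, and with spike-in scaling the value was 0.22 (adjusted p = 0.690).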

How the results depend on the processing

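CDKN1C in both lines, and CDKN1A and CDKN2D in JeKo-1, kept their direction and call under every alternative run. The cause of the changes below was not tested.

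Spike-in scaling gave, in Granta-519, CDKN1A 0.23, CDKN1B 0.74, CDKN2C 0.20, CDKN2D -0.34, CCND3 0.36, CDK4 0.35, CDK6 0.12, CCNA1 0.18, HAUS6 0.35, FOCAD 0.43 and MDM2 0.45. In JeKo-1 it gave CDKN1B 0.53 and CDKN2C -0.35, both uncalled, and for the difference CDKN1B 0.22, CDKN1C 0.27, CDKN2C 0.54 and CDKN2D 0.46. All-gene calls became 6373 higher and 113 lower (Granta-519), 1984 and 1771 (JeKo-1), and 3264 above and 140 below 0 for the difference. Member calls became 2 higher and 0 lower in Granta-519, 1 higher in JeKo-1 and 0 below 0 for the difference.

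Library weights gave CDKN1B 0.0855 and DENND4C -0.0262 in Granta-519, a CDKN1C difference of -0.63, 3579 genes lower in Granta-519 and 2 members below 0. Quantile normalization gave CDKN2A 0.45 (called) and CDKN2C -0.19 (uncalled) in JeKo-1. The GC correction gave CDKN2A -0.10, MTAP 0.19, MLLT3 0.24 and DENND4C 0.0145 in JeKo-1, and differences of 0.0382 for CDKN2C and 0.0846 for CDKN2D. The JeKo-1 table read as log2, which its digits go against, gave differences of -0.44 for CDKN1B, -0.37 for CDKN2C, -0.54 for CDKN2D and -0.16 for CCND1, 2 members below 0, and -0.10 for CDKN1A over CDK2.

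Same-numbered libraries deviated together at 0.0055, -0.12 and 0.033 (Granta-519) and at 0.19, 0.095 and 0.10 (JeKo-1), so the numbers were not taken as pairs. Every JeKo-1 library, though not every Granta-519 library, correlated best with its own number, a hint from the data and not from the design. The replicate block called CDKN2A in JeKo-1 (0.38, adjusted p = 0.0159) and the CDKN2D difference (-0.35, adjusted p = 0.0281), giving 2 members below 0, and changed no other member's call. It gave 2285 higher and 1903 lower genes (Granta-519) and 4901 and 3806 (JeKo-1).

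Leaving out 1 library at a time, which assumes that lone or paired samples vary like the rest, gave ranges of -0.0936 to 0.11 for CDKN1B and -0.0732 to 0.23 for DENND4C in Granta-519. In JeKo-1 they were 0.21 to 0.48 for CDKN2A, -0.33 to -0.18 for CDKN2C, -0.11 to 0.0178 for MTAP, -0.0688 to 0.0047 for MLLT3, -0.23 to 0.00039 for DENND4C and -0.11 to 0.17 for CDKN1A over CDK2. Differences ranged from -0.73 to -0.50 for CDKN1B, -0.80 to -0.36 for CDKN1C, -0.39 to -0.20 for CDKN2C and -0.49 to -0.24 for CDKN2D, with 0 to 2 members below 0. Genes called higher in Granta-519 numbered 1700 (without shCycD1 1) to 2712.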

Other observations

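MDM2, a ubiquitin ligase gene of the list read beside CDKN1A, was chosen after its values were seen. It fell by 0.29 in Granta-519 (limma, adjusted p = 0.0471) and fell by 0.66 in JeKo-1 (adjusted p = 0.00101). The Granta-519 value was not called when no minimum was set, with quantile normalization, with spike-in scaling (0.45), with the block, and without shCtrl 1 or 3 or shCycD1 2 or 3 (-0.27 to -0.24).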
